A study of Rattus norvegicus with 2 samples.

Results

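The genes described are 7 transcription factor genes that set intestinal identity and region: the caudal homeobox genes Cdx1 and Cdx2, the nuclear receptor genes Hnf4a and Hnf4g, and the GATA zinc finger genes Gata4, Gata5 and Gata6. They were chosen by symbol, and all 7 were among the 28116 gene symbols counted. Their transcripts were followed across cells of the colon of fetal rats at E19.5. Both libraries came from WT fetuses, 1 library from the maternal obesity group (replicate 2) and 1 from the control group (replicate 1), and the labels give neither the number or sex of the fetuses nor the stretch of colon taken.

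CDX2 and its close relative CDX1 direct the embryonic gut endoderm to an intestinal fate, and mouse intestine that loses Cdx2 takes on features of stomach. HNF4A and HNF4G bind the same kind of DNA site and act together in mouse enterocytes on genes of fat uptake and the brush border. GATA4 marks the upper small intestine and keeps ileal genes off there, whereas GATA6 is made along the whole length of the gut. GATA5 belongs to the same subfamily and is also made in gut endoderm.

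The maternal obesity library held 9714 barcodes with 120811946 transcripts counted by unique molecular identifier (UMI), and the control library 8903 barcodes with 103013814. After removal of barcodes under 500 genes or over 20% mitochondrial UMIs, 7236 remained in maternal obesity and 6879 in control, and 130 barcode sequences occurred in both libraries. Clusters that led in epithelial markers, with the 7 genes kept out of clustering, gave 1321 epithelial-like cells in maternal obesity and 2596 in control, at median depths of 24901 and 17118.5 UMIs per cell. In these cells the epithelial adhesion gene Epcam stood at 2624.5 CPM (UMIs of a gene scaled to a class total of 1000000) in maternal obesity and 2718.9 in control. There was 1 library per group, so no test between groups was possible. The intervals given are 95% intervals of counting error and hold nothing of the spread between animals.

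RefSeq promoter windows on build GRCr8, from 250 bases before to 50 after a gene's start, matched 4 of the 7 genes with 5 starts. The windows of both CDX genes and both starts of Hnf4a are shown, because Cdx1 and Cdx2 differed in their pattern in the data and because UMI counts cannot tell the starts of Hnf4a apart. Capitals mark a match to a GATA-type motif or to a TCF/LEF-type motif, the kind used by Wnt signalling, both searched on either strand and with no overlap between matches. The Cdx1 window lies at chr18:56761250-56761549 on the minus strand, that of Cdx2 at chr12:12762654-12762953 on the plus strand, and those of Hnf4a at chr3:172605970-172606269 and chr3:172641586-172641885 on the plus strand, 35616 bases apart.

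Cdx1: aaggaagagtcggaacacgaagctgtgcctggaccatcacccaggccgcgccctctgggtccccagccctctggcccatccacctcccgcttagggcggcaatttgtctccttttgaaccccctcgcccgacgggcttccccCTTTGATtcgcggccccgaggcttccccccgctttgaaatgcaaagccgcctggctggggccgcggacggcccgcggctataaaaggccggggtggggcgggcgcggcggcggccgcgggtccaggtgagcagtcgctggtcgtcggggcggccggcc
Cdx2: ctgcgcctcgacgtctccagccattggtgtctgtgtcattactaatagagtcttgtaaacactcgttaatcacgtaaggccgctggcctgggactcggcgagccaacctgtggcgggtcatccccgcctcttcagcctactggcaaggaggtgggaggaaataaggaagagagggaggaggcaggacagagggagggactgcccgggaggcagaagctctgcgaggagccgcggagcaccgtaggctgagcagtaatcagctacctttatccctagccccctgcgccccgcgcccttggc
Hnf4a, first start: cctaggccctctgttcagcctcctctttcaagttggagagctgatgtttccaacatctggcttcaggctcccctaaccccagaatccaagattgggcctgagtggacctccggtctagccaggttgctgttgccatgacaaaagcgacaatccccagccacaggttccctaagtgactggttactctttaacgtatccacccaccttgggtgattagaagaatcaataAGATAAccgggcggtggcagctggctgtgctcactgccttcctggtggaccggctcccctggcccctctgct
Hnf4a, second start: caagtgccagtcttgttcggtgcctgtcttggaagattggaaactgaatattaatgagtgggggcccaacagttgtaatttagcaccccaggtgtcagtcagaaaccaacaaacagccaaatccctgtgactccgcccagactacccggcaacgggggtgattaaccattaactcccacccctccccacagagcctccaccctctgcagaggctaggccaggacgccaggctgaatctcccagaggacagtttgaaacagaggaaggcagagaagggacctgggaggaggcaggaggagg

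The TCF/LEF-type motif CTTTGAT occurred in the Cdx1 window, at bases 143 to 149, and 3.63% of the 33469 promoter windows in the table held it. The GATA-type motif AGATAA occurred in the window of the first Hnf4a start, at bases 229 to 234, against 11.6% of all windows. The CDX-type motif CATAAA, held by 12.7% of all windows, and the HNF4-type motif CAAAGTCCA, held by 0.391%, had no match in the 5 windows of Cdx1, Cdx2, Hnf4a and Gata6. A match is a match of letters, and binding was not measured.

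In the colon as a whole, the CDX and HNF4 genes had their high levels in the epithelium, Gata6 was shared with the outer lining of the gut, Gata5 was sparse and Gata4 was all but undetected. Cdx1 had 52.8 CPM in epithelial-like cells of maternal obesity and 30.9 in control. Cdx2 had 234.8 CPM in those of maternal obesity and 181.4 in control. These are the levels against which the other cells are read.

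Hnf4a stood at 102 CPM in maternal obesity and 95.7 in control, and its paralogue Hnf4g at 57.0 in maternal obesity and 38.0 in control. Gata6 had 35.1 CPM in maternal obesity and 31.8 in control. Gata5 had 170 UMIs (4.18 CPM) in maternal obesity and 25 UMIs (0.458 CPM) in control. Gata4 had 3 UMIs in maternal obesity and 2 in control, each in a cell of its own, so no ratio is given for it.

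Outside the epithelium the CDX and HNF4 genes were near the level at which stray epithelial RNA was found. In enteric glia-like cells Cdx2 had 3.36 CPM in maternal obesity and 4.29 in control, which is 1.43% and 2.37% of its epithelial level in those libraries. The 14 epithelial marker genes had a median of 1.66% of their epithelial level in maternal obesity glia and 2.23% in control glia. In smooth muscle-like cells Cdx2 had 5.35 CPM in maternal obesity and 4.71 in control. The CDX and HNF4 values above the range of the 14 markers rested on 2 to 25 UMIs. Hnf4g was above that range in both libraries in 2 classes. In enteric neuron-like cells it was at 4.29% of its epithelial level in maternal obesity (10 UMIs) and 9.17% in control (7 UMIs), against highest markers of 3.83% and 4.86%. In subepithelial fibroblast-like cells it was at 6.11% in maternal obesity (9 UMIs) and 21.4% in control (4 UMIs), against highest markers of 5.91% and 8.16%.

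Mesothelium-like cells, the outer lining of the gut, had more Gata6 than the epithelium did. Gata6 had 83 UMIs, or 115 CPM (91.3 to 142), in the 120 mesothelium-like cells of maternal obesity and 52 UMIs, or 62.2 CPM (46.5 to 81.6), in the 114 of control. That is 327% of the epithelial level in maternal obesity and 196% in control, where the median of the 14 epithelial markers was 9.80% in maternal obesity and 5.64% in control. The library ratio in these cells was 1.84 (1.29 to 2.66), with 16.9% of the maternal obesity UMIs in 1 cell. The share of mesothelium-like cells with a Gata6 UMI was 21.7% in maternal obesity and 21.9% in control, at median depths of 2404 and 5027 UMIs.

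Gata5 also appeared there, with 4 UMIs in maternal obesity and 2 in control, too few to give a level with any precision. Cdx2 had 34.5 CPM in mesothelium-like cells of maternal obesity and 14.4 in control, and 44.0% of the maternal obesity UMIs came from 1 cell. Epcam in that cluster likewise had 39.7% of its maternal obesity UMIs in 1 cell. A part played by doublets of epithelial and mesothelial cells was not tested.

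A further Gata6 source was cluster C28, which no marker list named and whose leading genes were Clec3b, Mgp and Tac3. Gata6 had 32.4 CPM (27.1 to 38.5) in its 323 maternal obesity cells and 16.6 CPM (10.5 to 24.9) in its 141 control cells, a ratio of 1.96 (1.25 to 3.19). Cdx2 in the same cells stood at 5.53 CPM in maternal obesity and 6.49 in control, which is 2.36% and 3.58% of its epithelial level and within the range of the epithelial markers there. Cells like interstitial cells of Cajal, the pacemakers of the gut wall, had a lower Gata6 level of 4.75 CPM in maternal obesity and 5.51 in control. This was 13.5% and 17.3% of the epithelial level, against marker medians of 1.99% and 3.33%. Both Cajal-like values lay above the highest of the 14 markers, which were 4.13% in maternal obesity and 4.69% in control.

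**Figure D1:**
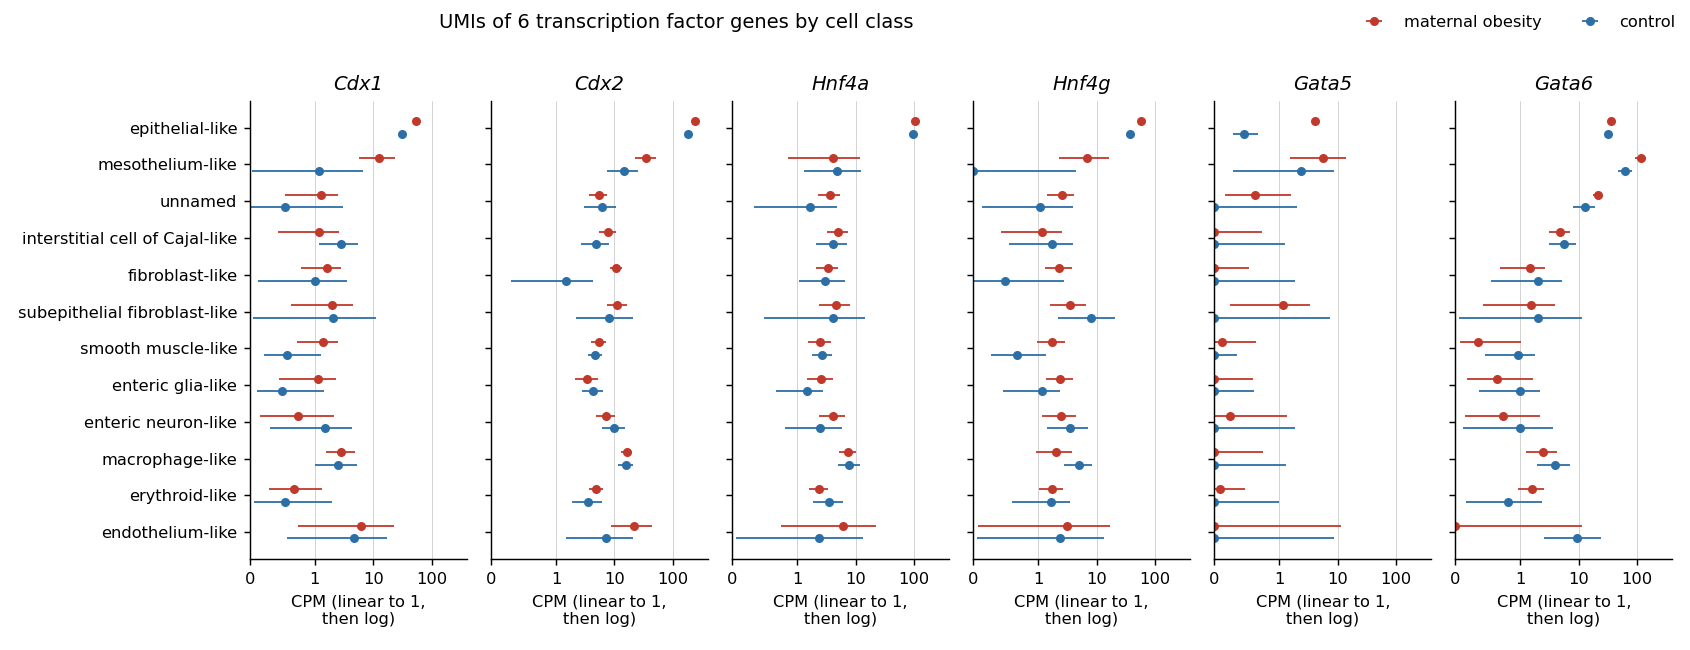
Level of 6 of the genes (CPM of the class total, axis linear to 1 and logarithmic above) in 12 cell classes of the maternal obesity (red) and control (blue) libraries, with bars for 95% counting intervals. The CDX and HNF4 genes peak in the epithelium, and Gata6 peaks in mesothelium-like cells at 115 CPM in maternal obesity and 62.2 in control.

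Within the epithelium the genes divided by the distal homeobox gene Hoxb13, which marks the hindmost gut. The epithelial-like cells formed 16 sub-clusters (E0 to E16, without E8, set aside as mixed). Sub-clusters with Hoxb13 at 50 CPM or more in both libraries are called Hoxb13-high here, and those at 10 CPM or less in both Hoxb13-low. This grouping was made after the values were seen. Just inside the limits were E13, at 50.6 CPM in maternal obesity, and E6, at 4.65 CPM in control. E15 met the limit in maternal obesity only through 1 Hoxb13 UMI in its 1 cell of that library. E6 had 0 Hoxb13 UMIs in its 4 maternal obesity cells. Just outside were E16, at 32.1 CPM in maternal obesity and 171 in control, and E1, at 23.0 CPM in maternal obesity and 168 in control. Hoxb13-high were E0, E2, E13 and E14, the goblet-like E5 and E15 and the distal surface-like E12. Hoxb13-low were E3, E4, E6 and E10, the immature E7, the absorptive E9 and E11, which is rich in fetal carrier proteins. The defensin-rich E1 and the enteroendocrine-like E16 fell between. The sets differ in cell type as well as in Hoxb13, since the goblet-like cells are in one and the absorptive and immature cells in the other.

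The libraries differed widely in this make-up. Hoxb13-high cells were 193 of 1321 epithelial-like cells in maternal obesity (14.6%, 12.7 to 16.6) and 1342 of 2596 in control (51.7%, 49.8 to 53.6). Hoxb13-low cells were 1031 (78.0%) in maternal obesity and 1061 (40.9%) in control. E9 held 314 maternal obesity cells and 8 control cells. Whether the stretch of colon taken differed between the libraries cannot be told apart from the groups.

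Cdx2 was lower in the Hoxb13-high cells in both libraries. It had 132 CPM in Hoxb13-high and 251 CPM in Hoxb13-low cells of maternal obesity, a ratio of 0.527 (0.485 to 0.572). In control it had 114 CPM in Hoxb13-high and 246 CPM in Hoxb13-low cells, a ratio of 0.463 (0.442 to 0.483). Over Hoxb13-high sub-clusters of at least 30 cells it ran from 111 to 275 CPM in maternal obesity and from 72.3 to 190 in control, and over Hoxb13-low ones from 223 to 289 in maternal obesity and from 224 to 259 in control. The sets overlapped in maternal obesity through E13 and did not overlap in control. E13 held 34 maternal obesity and 30 control cells at median depths of 9182 and 1917.5 UMIs, and its median mitochondrial share was 0.103%. Its maternal obesity cells had the urea cycle enzyme gene Otc at 69.6 CPM, against 67.4 CPM in Hoxb13-low cells of that library. They held 22 of the 26 Otc UMIs of Hoxb13-high cells of maternal obesity, and the E13 control cells held 0. Whether E13 mixes cells of both kinds was not tested.

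Cdx1 went the other way. It had 69.2 CPM in Hoxb13-high and 50.05 CPM in Hoxb13-low cells of maternal obesity, a ratio of 1.38 (1.22 to 1.56), and 38.1 CPM in Hoxb13-high and 23.4 CPM in Hoxb13-low cells of control, a ratio of 1.63 (1.47 to 1.80). Over sub-clusters of at least 30 cells the sets overlapped in Cdx1 in both libraries. Hoxb13-high ones ran from 53.8 to 80.9 CPM in maternal obesity and from 21.9 to 44.3 in control. Hoxb13-low ones ran from 12.6 to 66.6 CPM in maternal obesity and from 4.05 to 32.9 in control. The Hoxb13-low cells were thus uneven in Cdx1. In the fetal carrier sub-cluster E11 Cdx1 was down to 12.6 CPM in maternal obesity and 4.05 in control, while Cdx2 there stood at 289 CPM in maternal obesity and 258 in control. In E10 Cdx1 had 66.6 CPM in maternal obesity and 32.9 in control.

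The paralogues Hnf4a and Hnf4g split in opposite directions. Hnf4a had 154 CPM in Hoxb13-high and 96.4 CPM in Hoxb13-low cells of maternal obesity, a ratio of 1.60 (1.47 to 1.73). In control it had 124 CPM in Hoxb13-high and 73.2 CPM in Hoxb13-low cells, a ratio of 1.69 (1.60 to 1.79). The goblet-like E5 was an exception among the Hoxb13-high sub-clusters, with Hnf4a at 69.6 CPM in its 267 control cells, as was E13 in maternal obesity at 88.6 CPM.

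Hnf4g had 9.37 CPM in Hoxb13-high and 64.8 CPM in Hoxb13-low cells of maternal obesity, and 11.3 CPM in Hoxb13-high and 64.6 CPM in Hoxb13-low cells of control. The ratio of Hoxb13-high over Hoxb13-low was 0.145 (0.105 to 0.195) in maternal obesity and 0.175 (0.154 to 0.198) in control. Within the Hoxb13-low set the immature E7, led by Tdh and Shh, had the lowest Hnf4g at 28.8 CPM in maternal obesity and 36.2 in control. The other Hoxb13-low sub-clusters of at least 30 cells had 64.5 to 82.7 CPM in maternal obesity and 63.3 to 98.1 in control, so E7 stood apart from them in both libraries. The sets overlapped in each library, since E13 had 44.3 CPM in maternal obesity and the goblet-like E15 had 43.9 CPM in control. The E15 value rested on 9 UMIs in 57 control cells at a median depth of 3337 UMIs. The median mitochondrial share of E15 was 11.5%. E13 held 14 of the 44 Hnf4g UMIs of Hoxb13-high cells of maternal obesity.

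Gata5 was found in Hoxb13-low cells and not in Hoxb13-high ones. It had 0 UMIs in 4697269 UMIs of Hoxb13-high cells of maternal obesity and 0 in 24784228 of control, which allow up to 0.639 and 0.121 CPM at 3 counts. In Hoxb13-low cells it had 162 UMIs (4.71 CPM) in maternal obesity and 25 UMIs (0.917 CPM) in control. Set against 3 counts over the whole Hoxb13-high set, Gata5 was at least 7.37-fold higher in Hoxb13-low cells of maternal obesity and at least 7.58-fold higher in those of control. These bounds take the Hoxb13-low counts as exact, and the counting intervals of the ratio, which do not, reach down to 5.92 in maternal obesity and 5.72 in control. The defensin-rich E1 held a further 7 UMIs in maternal obesity and 0 in control.

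Gata6 varied less along this axis. It had 29.6 CPM in Hoxb13-high and 36.0 CPM in Hoxb13-low cells of maternal obesity, a ratio of 0.823 (0.686 to 0.981). In control it had 32.8 CPM in Hoxb13-high and 31.8 CPM in Hoxb13-low cells, a ratio of 1.03 (0.934 to 1.13). Its lowest level among sub-clusters of at least 100 control cells was in the goblet-like E5, at 14.9 CPM in control and 16.8 CPM in the 29 maternal obesity cells, and its highest in the distal surface-like E12, at 49.1 CPM in control. The 5 Gata4 UMIs of the epithelium were all in Hoxb13-low cells.

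**Figure D2:**
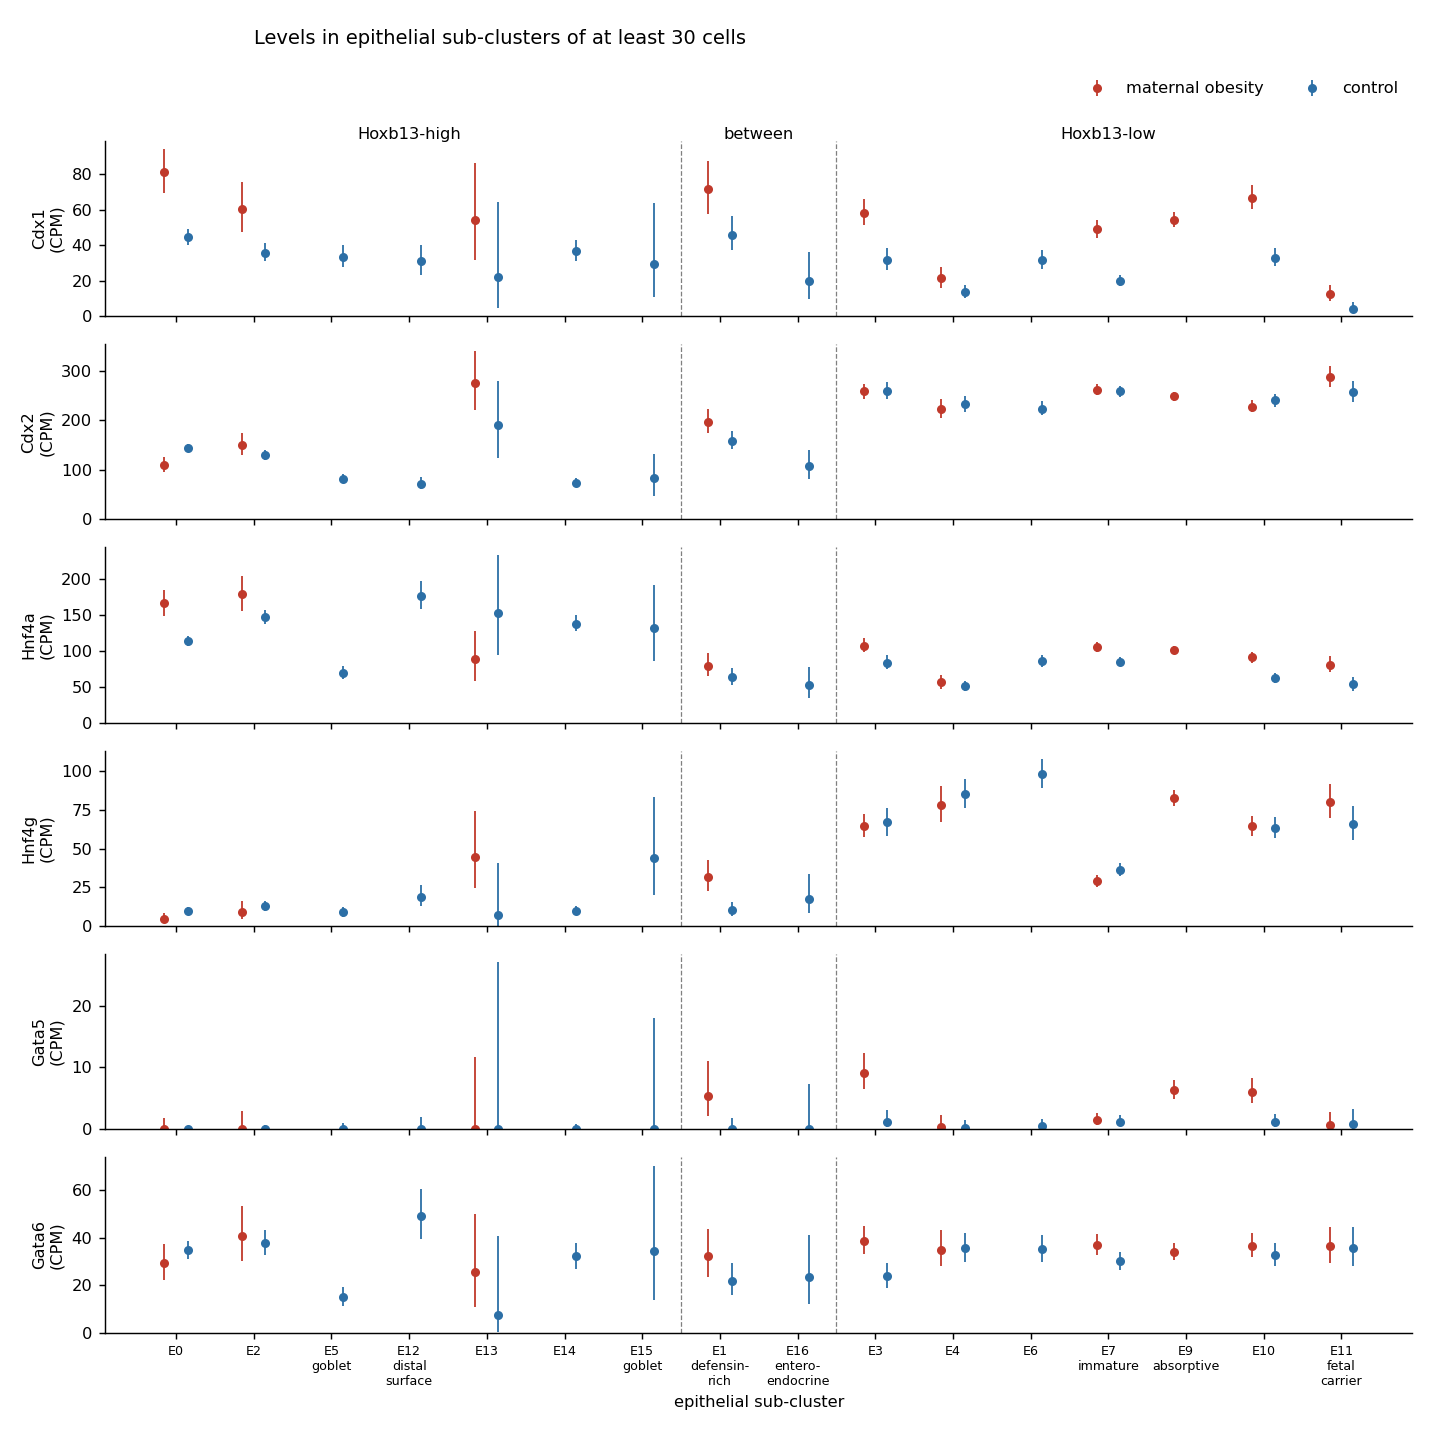
Level of 6 of the genes (CPM, linear axes from 0) in each epithelial sub-cluster with at least 30 cells in the library, maternal obesity in red and control in blue, with bars for 95% counting intervals and dashed lines between the Hoxb13 groups. Cdx2 and Hnf4g stand mostly higher on the Hoxb13-low side, with the exceptions of E13 in maternal obesity (275 and 44.3 CPM) and, for Hnf4g, E15 in control (43.9 CPM), and Gata5 is at 0 in every Hoxb13-high sub-cluster shown.

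Pooled over the epithelium, 3 of the 6 genes with at least 20 UMIs were at least 1.5-fold higher in maternal obesity and none was 1.5-fold lower. Of 13680 genes with that many UMIs in these cells, 12.2% were 1.5-fold higher and 11.4% were 1.5-fold lower. The median log2 ratio was 0.48 over the 6 genes and 0.05 over all genes. The 3 genes were Cdx1, at a ratio of 1.71 (1.60 to 1.82), Hnf4g at 1.502 (1.42 to 1.59), just past the limit, and Gata5 at 9.11 (5.97 to 14.5).

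Cdx1 was higher in maternal obesity in both sets of cells. Its ratio was 1.82 (1.60 to 2.06) in Hoxb13-high cells and 2.14 (1.95 to 2.34) in Hoxb13-low cells. Across the 9 sub-clusters that reached 30 cells in both libraries it was higher in maternal obesity in 9, with log2 ratios from 0.64 to 1.58. The lower end of the interval lay above 1 in 8 of them, and E13 was the exception at 2.45 (0.709 to 13.1). The E7 cells had 48.9 CPM in maternal obesity and 19.8 in control, a ratio of 2.47 (2.05 to 2.99).

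Cdx2 and Hnf4g had larger ratios in the pool than in either set. Cdx2 had a pooled ratio of 1.29 (1.26 to 1.33), against 1.16 (1.06 to 1.27) in Hoxb13-high cells and 1.02 (0.987 to 1.05) in Hoxb13-low cells. Hnf4g had ratios of 0.829 (0.589 to 1.14) in Hoxb13-high cells and 1.003 (0.942 to 1.07) in Hoxb13-low cells. Both genes have their high level in the Hoxb13-low cells, which made up 78.0% of the epithelial-like cells of maternal obesity and 40.9% of those of control. Single sub-clusters differed from their set. In E0, a Hoxb13-high sub-cluster, the ratio was 0.767 (0.664 to 0.883) for Cdx2 and 0.431 (0.191 to 0.856) for Hnf4g. Averaged with equal weight over sub-clusters, the log2 ratio of Cdx2 was 0.08 and that of Hnf4g -0.02, against pooled values of 0.37 and 0.59. Single values ran from -0.38 to 0.51 over 9 sub-clusters for Cdx2 and from -1.14 to 1.62 over 8 for Hnf4g. In the defensin-rich E1 Hnf4g had 31.5 CPM in maternal obesity and 10.1 in control, where Hoxb13 differed too. Leaving out E9 gave Hnf4g a log2 ratio of -0.20 in the remaining Hoxb13-low cells, and leaving out E13 gave it -0.70 in the remaining Hoxb13-high cells.

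Hnf4a differed less in the pool than within either set. Its pooled ratio was 1.07 (1.03 to 1.12), against 1.25 (1.15 to 1.35) in Hoxb13-high cells and 1.32 (1.25 to 1.39) in Hoxb13-low cells. It was higher in maternal obesity in 8 of 9 sub-clusters, with the exception of E13 at 88.6 CPM in maternal obesity and 154 in control, where the interval of the ratio ran from 0.316 to 1.07. Gata6 had ratios of 1.10 (1.03 to 1.18) in the pool, 0.903 (0.749 to 1.08) in Hoxb13-high cells and 1.13 (1.03 to 1.23) in Hoxb13-low cells.

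Gata5 differed within the Hoxb13-low set. Its ratio there was 5.13 (3.35 to 8.16), against 9.11 in the pool. No single cell held more than 2.47% of the maternal obesity UMIs of that set. The sub-clusters between the sets had 8 Gata5 UMIs in maternal obesity and 0 in control. Gata5 had 9.05 CPM in maternal obesity and 1.18 in control in E3, and 6.03 CPM in maternal obesity and 1.14 in control in E10. E3 was led by haemoglobin genes, which made up 0.282% of its UMIs in maternal obesity and 0.0105% in control, and their part in the Gata5 value was not tested. In E10 haemoglobin was 0.0333% in maternal obesity and 0.0157% in control. In the immature E7 Gata5 had 1.45 CPM in maternal obesity and 1.22 in control, a ratio of 1.19 (0.459 to 3.13). It had 1 UMI in each library in E4 and 2 UMIs in each library in E11. The absorptive E9, led by Enpep, Cps1 and Otc, had 71 Gata5 UMIs in its 314 maternal obesity cells (6.31 CPM) and 0 in its 8 control cells. Without E9 the log2 ratio in Hoxb13-low cells was 2.07, against 2.34 with it.

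By the same 1.5-fold limit, Cdx1 was the 1 gene of 5 measured that was higher in Hoxb13-high cells, where 8.78% of 12021 genes were higher and 8.39% lower. In Hoxb13-low cells Cdx1 and Gata5 were the 2 of 6 that were higher, against 14.0% of 12785 genes higher and 5.16% lower. With all sub-clusters in, none of the 7 genes was 1.5-fold lower in either set. Without E13, Hnf4g was past that limit in Hoxb13-high cells, at 6.85 CPM in maternal obesity and 11.3 in control, a ratio of 0.605 (0.401 to 0.883), where 8.98% of 11997 genes were higher and 8.14% lower. Haemoglobin and other erythroid markers moved with the library in the same cells. The 9 erythroid markers counted summed to 659 CPM in epithelial-like cells of maternal obesity and 79.0 CPM in control, with 0 of the 9 at 0 UMIs in either library. Leaving haemoglobin, mitochondrial and ribosomal genes out of the totals kept the 6 pooled ratios within their counting intervals.

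**Figure D3:**
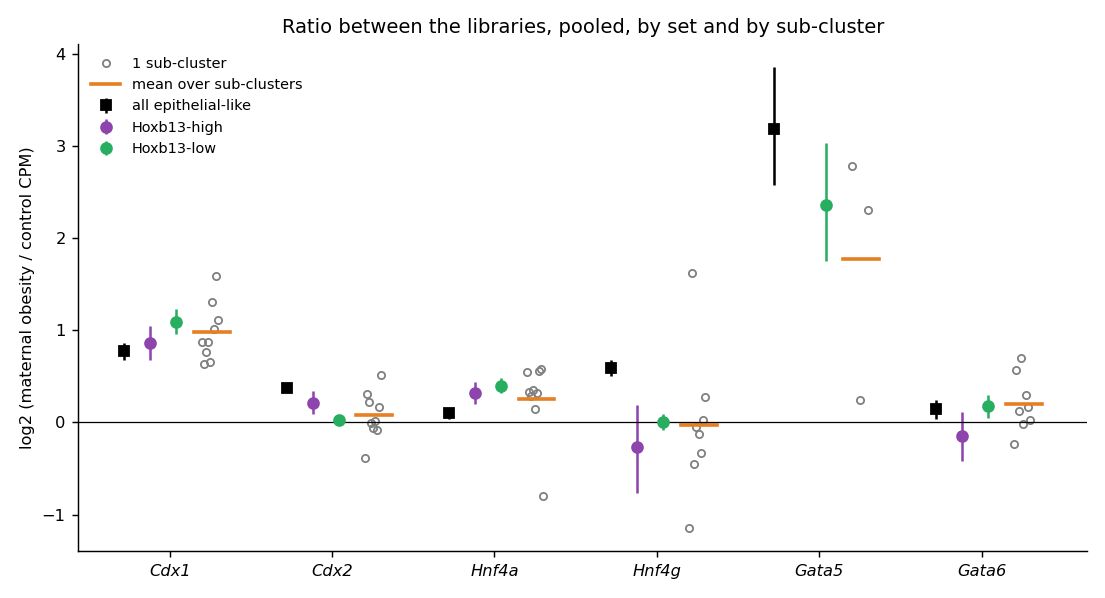
Log2 ratio of maternal obesity over control for 6 of the genes, in all epithelial-like cells (black), Hoxb13-high cells (purple) and Hoxb13-low cells (green) with 95% counting intervals, in single sub-clusters (open circles) and as their mean (orange). Cdx1 lies above 0 in each of these, while Cdx2 and Hnf4g lie above 0 in the pool and near 0 in the mean over sub-clusters.

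The genes were also counted per cell at equal depth. After thinning to 3000 UMIs per cell, with 27 maternal obesity and 127 control cells too shallow, Cdx1 was found in 13.8% of epithelial-like cells of maternal obesity (11.997 to 15.8) and 8.87% of control (7.78 to 10.1). Without thinning the shares were 60.9% and 38.7%. In enteric glia-like cells, which should lack the gene, the thinned shares were 0.584% in maternal obesity and 0.191% in control, at unthinned median depths of 9955 and 9372 UMIs.

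Hnf4g was found in 3.30% of thinned Hoxb13-high cells of maternal obesity and 3.54% of those of control, and in 17.96% of Hoxb13-low cells of maternal obesity and 17.98% of those of control. Gata5 was found in 12 of 1019 thinned Hoxb13-low cells of maternal obesity and 1 of 1040 of control. It was in 0 of 182 thinned Hoxb13-high cells of maternal obesity, which allows up to 1.65%, and 0 of 1243 of control, which allows up to 0.241%. Both limits lie above the Hoxb13-low shares of 1.18% in maternal obesity and 0.0962% in control, so no difference between the sets is detectable at this depth. The share of thinned epithelial-like cells with UMIs of at least 2 of the 7 genes was 32.8% in maternal obesity (30.3 to 35.5) and 20.6% in control (19.04 to 22.3).

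Pairs of the genes were set against the product of their single shares. Cdx2 with Hnf4a, the most frequent pair, was in 13.3% of thinned epithelial-like cells of maternal obesity, where the product of the single shares is 13.1%, and in 8.34% of control, where it is 9.35%. Cdx2 with Hnf4g was in 9.04% of maternal obesity cells against a product of 7.55%, and in 5.18% of control cells against 3.58%. Within Hoxb13-low cells that pair was in 10.8% of maternal obesity cells against 9.64%, and in 10.7% of control cells against 9.37%. Hnf4g with Gata6 was found at 1.59 times the product in epithelial-like cells of maternal obesity and 1.45 times in those of control. Within Hoxb13-low cells it was at 1.55 times in maternal obesity, or 27 cells against 17.4, and 1.32 times in control, or 25 cells against 18.9. Hnf4g with Hoxb13 was in 0.155% of maternal obesity cells against a product of 0.795%, and in 0.810% of control cells against 2.66%. That product is taken over both sets, which Hoxb13 itself defined. Within Hoxb13-high cells the pair was at 0.933 times the product in maternal obesity, or 2 cells against 2.14. In control it was at 0.923 times there, or 20 cells against 21.7.

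**Figure D4:**
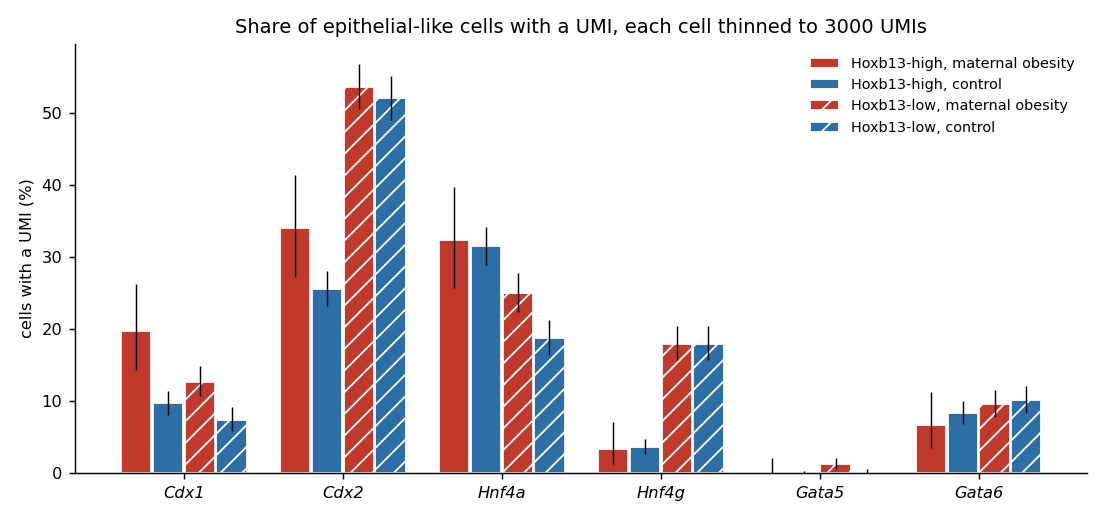
Share of cells with at least 1 UMI of 6 of the genes after thinning each cell to 3000 UMIs (bars from 0, lines for exact 95% binomial intervals), for Hoxb13-high (plain) and Hoxb13-low cells (hatched) of maternal obesity (red) and control (blue). Cdx2 and Hnf4g are more often found in Hoxb13-low cells of either library, and Cdx1 is more often found in maternal obesity in either set.

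Low-depth epithelial barcodes, kept apart from the cells above, had a different balance of the genes. Clusters C15 and C1, at median depths of 1212 and 1214.5 UMIs, carried epithelial genes but were not named because of their depth. In C15 Hnf4g had 295 UMIs, or 567 CPM (504 to 635), in 304 maternal obesity barcodes and 157 UMIs, or 242 CPM (205 to 283), in 306 control barcodes. That was 9.94-fold (8.77 to 11.2) the level of the epithelial-like cells of maternal obesity and 6.37-fold (5.38 to 7.49) that of control, and 3.39% of the maternal obesity UMIs came from the cell with the most.

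Hnf4a in C15 was 2.42-fold (2.01 to 2.88) its epithelial-like level in maternal obesity and 1.58-fold (1.28 to 1.93) in control. Gata6 was 1.26-fold (0.796 to 1.90) in maternal obesity and 2.61-fold (1.96 to 3.43) in control. Cdx1 was 0.655-fold (0.388 to 1.04) in maternal obesity and 0.648-fold (0.345 to 1.11) in control, so the genes did not shift together. The leading genes of C15 included Tnfsf15, Selenoi, Dhrs9 and Hnf4g itself. Its mitochondrial share was 8.18% in maternal obesity and 9.56% in control, against 3.01% and 2.64% in epithelial-like cells. In C1, led by the small nuclear RNAs 7SK and U1, Hnf4g was 1.38-fold (0.595 to 2.72) in maternal obesity and 1.296-fold (0.820 to 1.95) in control. A part of cell damage in these values was not tested.

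**Figure D5:**
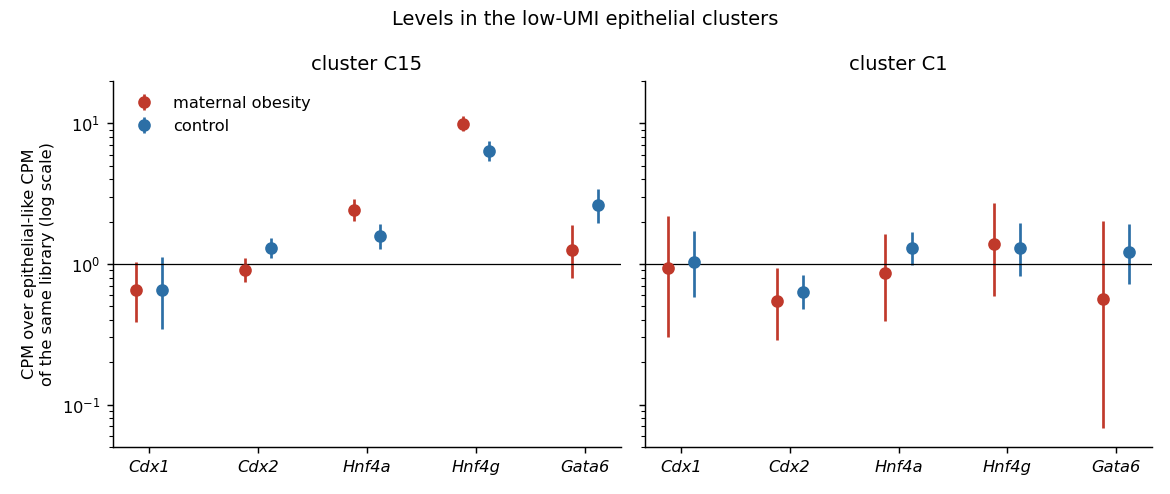
Level of 5 of the genes in the low-depth epithelial clusters C15 and C1, as CPM over the CPM of epithelial-like cells of the same library on a logarithmic axis, maternal obesity in red and control in blue with 95% counting intervals. Hnf4g in C15 stands at 9.94-fold in maternal obesity and 6.37-fold in control, and in C1 its intervals include 1.

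Genes linked to these factors were read from lists of targets and regional markers. The lists overlap, so their counts are not separate results. Fabp1, Fabp2, Apoa1, Apoc3 and Npc1l1 are listed as both HNF4-linked and jejunal. Lct and Sis are listed as both CDX2-linked and jejunal, and Cdh17 and Vil1 as both HNF4-linked and CDX2-linked. The markers that named E9 absorptive also include genes of these lists, among them Fabp1, Apoa4, Mttp and Cps1. Of 17 HNF4-linked enterocyte genes measured in the pooled epithelium, 12 were at least 1.5-fold higher in maternal obesity and 0 lower, with a median log2 ratio of 1.02. In Hoxb13-low cells 8 of 17 were higher and 0 lower, with a median of 0.54, and in Hoxb13-high cells 3 of 10 were higher and 0 lower, with a median of 0.26. The medians over all genes were 0.05 in the pool, 0.09 in Hoxb13-low cells and 0.02 in Hoxb13-high cells, and the shares of all genes that were higher were 12.2%, 14.0% and 8.78%. The absorptive E9, led by Enpep, Cps1, Otc, Apoc2 and Apoa4, made up 314 of the 1031 Hoxb13-low cells of maternal obesity and 8 of the 1061 of control. Without E9, a count made after seeing the data, 5 of 16 HNF4-linked genes were higher and 0 lower in Hoxb13-low cells, against 13.3% of all genes higher.

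Apoa4, an apolipoprotein of fat absorption, had 13.5 CPM in the pooled epithelium of maternal obesity and 2.77 in control. Within Hoxb13-low cells it had 15.9 CPM in maternal obesity and 5.54 in control, and without E9 11.05 CPM in maternal obesity and 5.56 in control. Mttp, the transfer protein that loads lipoproteins, had 22.7 CPM in Hoxb13-low cells of maternal obesity and 9.65 in those of control. Apoc3 had 6.13 CPM in maternal obesity and 1.72 in control in the same cells. The more evenly spread Vil1, a brush border actin bundler, had 258 CPM in Hoxb13-low cells of maternal obesity and 213 in those of control. Apoc2 had 222 CPM in Hoxb13-low cells of maternal obesity and 135 in those of control. Cdh17, an adhesion gene of the intestine, had 272 CPM in Hoxb13-low cells of maternal obesity and 215 in those of control.

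Of 13 CDX2-linked genes, 6 were higher and 1 lower in the pool, with a median log2 ratio of 0.58, where 12.2% of all genes were higher and 11.4% lower. In Hoxb13-low cells 3 of the 13 were higher and 0 lower, with a median of 0.34, where 14.0% of all genes were higher and 5.16% lower. Car1, a carbonic anhydrase, had 86 UMIs in epithelial-like cells of maternal obesity and 1 in control, a ratio of 115 with an interval of 20.1 to 4603. Slc26a3, the chloride exchanger of the colon surface, had 7.79 CPM in maternal obesity and 1.45 in control. Tff3, a goblet cell peptide, had 1307 CPM in maternal obesity and 2415 in control in the pool, and 2572 CPM in maternal obesity and 3449 in control in Hoxb13-high cells. The lectin gene Lgals4 had 2973 CPM in the pool of maternal obesity and 3702 in control.

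Jejunal genes were mostly higher in the pool of maternal obesity, and ileal genes were mixed. Of 10 jejunal genes 8 were higher and 0 lower in the pool (median log2 ratio 1.03), and of 6 ileal genes 3 were higher and 1 lower (0.93). Of all genes in the pool, 12.2% were higher and 11.4% lower. Within Hoxb13-low cells 6 of the 10 jejunal genes were higher and 0 lower (0.72), and 3 of the 6 ileal genes were higher and 1 lower (0.35). Of all genes in those cells, 14.0% were higher and 5.16% lower. Without E9 the Hoxb13-low counts were 3 of 10 and 0 for jejunal genes and 2 of 6 and 1 for ileal genes. The medians were 0.54 and 0.02, against 13.3% of all genes higher and 3.58% lower. The glucose transporter gene Slc5a1 had 39.7 CPM in Hoxb13-low cells of maternal obesity and 23.9 in those of control. Cps1, a urea cycle enzyme, had 20.2 CPM in Hoxb13-low cells of maternal obesity and 0.624 in those of control, and without E9 13.03 CPM in maternal obesity and 0.626 in control. Otc, the next enzyme of that pathway, had 67.4 CPM in Hoxb13-low cells of maternal obesity and 28.3 in those of control, and without E9 46.6 CPM in maternal obesity and 28.2 in control. The bile acid transporter subunits Slc51a and Slc51b had 3.54 and 10.3 CPM in Hoxb13-low cells of maternal obesity, against 1.39 and 2.46 CPM in those of control. The ileal bile acid transporter Slc10a2 had 12.8 CPM in Hoxb13-low cells of maternal obesity and 8.11 in those of control, and without E9 8.16 CPM in maternal obesity and 8.10 in control. Amn, part of the vitamin B12 receptor, went the other way there, at 161 CPM in maternal obesity and 186 in control, and the bile acid receptor gene Nr1h4 had 34.5 CPM in maternal obesity and 33.7 in control.

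Of 7 distal factor genes measured in the pool, 0 were higher and 6 lower in maternal obesity, with a median log2 ratio of -2.39, where 11.4% of all genes were lower. Hoxb13, which defined the sets, had 26.6 CPM in maternal obesity and 147 in control, and Hoxd13 had 2.73 CPM in maternal obesity and 14.4 in control. Within Hoxb13-high cells 0 of 7 distal factors were higher and 3 lower (median log2 ratio -0.46), against 8.39% of all genes lower. Hoxd13 had 21.9 CPM in Hoxb13-high cells of maternal obesity and 28.6 in those of control, and Hoxb13 had 220 and 303 CPM. Within Hoxb13-low cells 1 of 2 distal factors measured was lower, against 5.16% of all genes. Hoxb13 had 0.320 CPM in Hoxb13-low cells of maternal obesity and 3.23 in those of control. Of 9 colonic genes 4 were higher and 4 lower in the pool, where 12.2% of all genes were higher and 11.4% lower. In Hoxb13-low cells 3 of 6 colonic genes were higher and 1 lower (median log2 ratio 0.63), against 14.0% and 5.16% of all genes. Without E9 4 of the 6 were higher and 1 lower (0.73), against 13.3% and 3.58%. In Hoxb13-high cells 0 of 7 were higher and 2 lower (-0.37), against 8.78% and 8.39%.

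Of 22 other intestinal and endodermal factors, 6 were higher and 4 lower in the pool (median log2 ratio 0.11), where 12.2% of all genes were higher and 11.4% lower. Klf5, a factor of dividing epithelium, had 504 CPM in maternal obesity and 572 in control, and the epithelial ETS factor gene Elf3 had 316 CPM in maternal obesity and 383 in control. Ehf, of the same family, had 91.5 CPM in maternal obesity and 201 in control in the pool, against 258 CPM in maternal obesity and 320 in control within Hoxb13-high cells. Among 9 relatives and partners of the 7 genes, 1 was higher and 3 lower in the pool (median -0.45), against the same shares of all genes. Nr2f6, a nuclear receptor, had 58.2 CPM in maternal obesity and 79.6 in control, and the coactivator gene Ppargc1a had 4.86 CPM in maternal obesity and 12.1 in control. Of 8 foregut and proximal factors 2 were measured and 0 were higher or lower. Pdx1 had 6 UMIs in maternal obesity and 11 in control, and Sox2 had 22 UMIs in maternal obesity and 30 in control.

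The genes whose levels ran closest to each factor across epithelial sub-clusters are given as a description, over 25 sub-clusters by library that share 2 libraries and their depth, among 10343 genes. By Pearson correlation of log2(CPM + 1), Cdx1 ran closest to Kcne3, a potassium channel subunit gene (r = 0.876), Carnmt1 (0.872) and Mpv17l2 (0.857). Cdx2 ran closest to Galk1 (0.925), MGC109340 (0.924) and Emid1 (0.911), and stood at -0.83 with Hoxb13. Hnf4a ran closest to Clint1 (0.921), MGC105649 (0.890) and Myb (0.864), and Hnf4g to Hebp1 (0.907), Casp12 (0.889) and Tfec (0.883). The value of Hnf4g with Hoxb13 was -0.85, and that of Hnf4a with Hoxb13 was 0.51. These sub-clusters are the ones that Hoxb13 divided above. Its values with Cdx2, Hnf4g and Hnf4a therefore restate that split and add no separate evidence for it. Gata5 ran closest to Cps1 (0.863), Myrfl (0.849) and Nid2 (0.839), and Gata6 to Notch2 (0.887), Trak2 (0.884) and Pdcd11 (0.883). Between members of the group the highest value was that of Cdx2 with Hnf4g (0.672), and that of Hnf4a with Hnf4g was -0.53.

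Across all 65 clusters by library, which contrast epithelium with other cells, 12499 genes were compared. Cdx1 ran closest to Gpx2 (0.947) and Cdx2 (0.939), and Cdx2 to Gpx2 (0.968) and Cldn7 (0.959). Hnf4a ran closest to Cldn7 (0.954) and Gpa33 (0.952), and Hnf4g to Selenoi (0.920) and Trim31 (0.911). The clusters compared include the low-depth C15, and both Hnf4g and Selenoi are among its leading genes. The part of C15 in that value was not tested. Gata5 ran closest to Tbc1d21 (0.846) and Tm4sf5 (0.772), and Gata6 to Dsg2 (0.857) and Sfn (0.855). Gata4, with under 100 UMIs, was not compared.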

How the data were processed

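Single-cell RNA counts of 2 libraries were used, 1 from each group. The deposited matrices hold unnormalized UMI counts. They were made with Cell Ranger, version 6.1.2 per the file headers and 2.1.1 per the submitters' processing notes, a difference that could not be settled, and no source used here names the genome build. Counts of identifiers with the same symbol were summed. Barcodes under 500 genes or over 20% mitochondrial UMIs were left out. Cells were clustered with scanpy 1.11.5 on 2000 variable genes (Leiden, resolution 1) without the 7 genes, and clusters were named from marker lists by a rule set after the clusters were seen. The doublet caller marked 1.52% of maternal obesity and 0.0291% of control cells, against 5.79% and 5.50% expected, so it had not worked in control, and no cell was removed as a doublet, although removal had been planned.

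Levels (CPM) are UMIs scaled to a class total of 1000000, with exact Poisson intervals. Ratios have exact conditional binomial intervals, log2 ratios use 0.5 UMI as pseudocount, and shares have exact Clopper-Pearson intervals, all at 95%. UMIs of 1 library are not biological replicates, so intervals and the limit of 3 counts cover counting error only. Ratios at or past 1.5-fold were counted among genes with at least 20 UMIs. The ratio intervals and log2 ratios were tested on simulated counts, and the other steps were not.

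The 7 genes and the lists were chosen with earlier results of these data known. Genes named from a list were taken from its 3 of highest CPM in epithelial-like cells and those past 3-fold between libraries. 1 gene that this rule names is not reported here. Genes most like each of the 7 were its 3 of highest correlation over sub-clusters and 2 over all clusters.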

Additional observations from a re-analysis of the deposited data

How the results depend on the processing

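The log2 ratios of maternal obesity over control in pooled epithelial-like cells moved most when sub-clusters were given equal weight. They became 0.98 for Cdx1, 0.0781 for Cdx2, 0.26 for Hnf4a and 1.78 for Gata5, and that of Hnf4g turned to -0.0229. These means were over 9 sub-clusters for Cdx1, Cdx2 and Hnf4a, 8 for Hnf4g and 3 for Gata5. Single sub-clusters ran from -1.14 to 1.62 for Hnf4g and from 0.24 to 2.78 for Gata5. In Hoxb13-low cells without E9, an alternative chosen after seeing the data, the log2 ratio of Hnf4g turned to -0.20. In Hoxb13-high cells without E13, chosen likewise, it was -0.70, past 1.5-fold, against -0.26 with E13. Without E9, 5 in place of 8 HNF4-linked and 3 in place of 6 jejunal genes were higher in Hoxb13-low cells. Of colonic genes, 4 in place of 3 were higher there. The other 67 pooled log2 ratios recomputed kept their sign and stayed within the counting interval. Over these alternatives Cdx1 ran from 0.76 to 0.98, Cdx2 from 0.08 to 0.40, Hnf4a from 0.08 to 0.26, Hnf4g from -0.02 to 0.63, Gata5 from 1.78 to 3.27 and Gata6 from 0.12 to 0.20. They covered other limits on genes and mitochondrial UMIs, cluster resolutions of 0.5 and 2, ComBat adjustment, a marker gate, other totals, and leaving out shared barcodes, single cells or doublet calls. Keeping doublet calls is the reported setting. Shares of cells with a UMI follow depth, and 22 moved beyond their counting interval and 6 did not when thinned to 1500 UMIs or not thinned. Without thinning, 54 shares of cells with a pair of genes moved and 2 did not. Of the recomputed CPM levels in epithelial-like cells, 24 moved beyond it and 120 did not. No paired analysis was possible because each group had 1 library. Gata4 had too few UMIs for a ratio.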
